A study of Homo sapiens with 4 samples.

Results

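The 38 genes described here encode proteins of mitosis and the spindle: the kinases and cyclins that start mitosis, the spindle checkpoint, the kinetochore, the motors that build the spindle and the proteins of cell cleavage. They were given as a list of gene symbols, and all 38 were found among the 29387 genes counted in all 4 libraries. Their transcripts were measured in polyadenylated RNA of U87MG, an established human glioblastoma cell line. Parental cells had been kept on organotypic brain slices, living sections of brain in culture, for 1 week, in a medium for neural stem cells to which FGF and EGF were added. The highly invasive populations 1 and 2 and the poorly invasive control populations 1 and 2 were recovered from these slices. Before RNA was taken, all 4 were expanded in dishes for 3 to 5 days, so the RNA is not that of cells within tissue. Each population gave 1 library, and the series' design text sets each invasive population against the control of the same number (pair 1 and pair 2). The labels do not say how many dishes or slices a population came from.

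In dividing cells, cyclin-dependent kinase 1 with cyclins A and B starts mitosis, kinetochores attach chromosomes to spindle microtubules, and the spindle checkpoint holds back the anaphase-promoting complex until every chromosome is attached. Most of these transcripts are made in late S phase, G2 and mitosis, under the DREAM and MuvB complexes and the transcription factor FOXM1, and are low in resting cells. Their level in bulk RNA is therefore widely used as a measure of proliferation. In bulk RNA, fewer cells in mitosis and less of each transcript per dividing cell cannot be told apart.

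Total counts ran from 13829871 to 17817756 per library, and all 38 genes passed the filter on low counts, with at least 161 counts in each library. Of genes known from the line, VIM, CD44, FN1 and S100A6 were high in each library, while NES had 33.7 and 15.7 CPM (counts of a gene per 1000000 counts in the library) in invasive 1 and 2 and 41.5 and 19.5 CPM in control 1 and 2. The summed level of these 5 genes was 15538 and 14418 CPM in invasive 1 and 2, and 15697 and 13563 CPM in control 1 and 2. Of markers of other brain cells, AQP4 of astrocytes, MOG of oligodendrocytes, P2RY12 of microglia and CLDN5 of endothelium had no count in any library, and the leukocyte gene PTPRC had at most 1. The summed level of the oligodendrocyte list was 0.323 and 0.217 CPM in invasive 1 and 2 and 1.12 and 0.583 CPM in control 1 and 2. The astrocyte list had 2.91 and 2.24 CPM in the invasive libraries and 0.842 and 2.20 CPM in the controls, and the endothelial list 1.87 and 1.59 CPM in invasive 1 and 2 against 1.40 and 0.906 CPM in control 1 and 2. The microglia and leukocyte list, nearly all of it CSF1R, had 18.2 and 10.2 CPM in invasive 1 and 2 against 21.4 and 10.8 CPM in control 1 and 2. The neuron list, led by SNAP25 and MAP2, had 75.8 and 71.8 CPM in invasive 1 and 2 against 63.8 and 61.6 CPM in control 1 and 2. From which species the slices came is not stated in the labels, so reads that did not map to the human genome are not covered by these values.

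The mitotic genes were slightly lower in the invasive populations, and no single gene passed the test. Summed over the 38 genes, the level was 6609 CPM in invasive 1 against 7121 CPM in control 1, and 5056 CPM in invasive 2 against 5830 CPM in control 2. The log2 difference of these sums was −0.11 for pair 1 and −0.21 for pair 2. The median log2 fold change of the 38 genes, invasive over control, was −0.19 over both pairs, while that of all 14231 genes tested was 0.01. Of the 38 genes, 29 were lower in the invasive population in both pairs (29.3% of all genes tested were), 8 differed in opposite directions in the pairs, and only KIF20A was higher in both (36% of all genes tested were).

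In edgeR's two-sided quasi-likelihood test, blocked by pair and adjusted over all genes (Benjamini-Hochberg, 0.05), 0 of the 38 genes were called lower, where the background is 0.0351% of all genes tested, and 0 higher, where it is 0.239%. DESeq2 with the pair as a term also called 0 of them, where the background is 1.2% of all genes tested in either direction. With no filter on low counts, which also changes the TMM factors and the estimated spread, edgeR called 6 of the 38 lower (MAD2L1, NUF2, CENPE, ECT2, BUB1 and CCNA2), where the background is 2.71% of the 25577 genes then tested. At an unadjusted p under 0.05, edgeR had 11 of the 38 lower (8.41% of all genes tested) and 1 higher (9.82%), and DESeq2 had 4 lower (2.74%) and 0 higher (4.24%). Both invasive libraries lay below both controls for 10 of the 38 genes (19.7% of all genes tested), and above both controls for 0 (23.7%).

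The size of this difference moved with the library left out, in fits that could not keep the pair block. With 1 library left out, a pair block leaves no residual degree of freedom, so these fits have the group alone and the gap between the pairs described below enters their values. Without control 1 the median of the 38 genes was −0.02, and without invasive 2 it was −0.01. Without invasive 1 it was −0.39 and without control 2 it was −0.33. Within pair 1 alone the median log2 difference of the 38 genes was −0.13, and within pair 2 alone −0.22. The number of the 38 genes with a fold change below 0 was 20 without control 1, 21 without invasive 2, 37 without invasive 1 and 38 without control 2, against 35 with all libraries (49.2% of all genes tested).

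**Figure D1:**
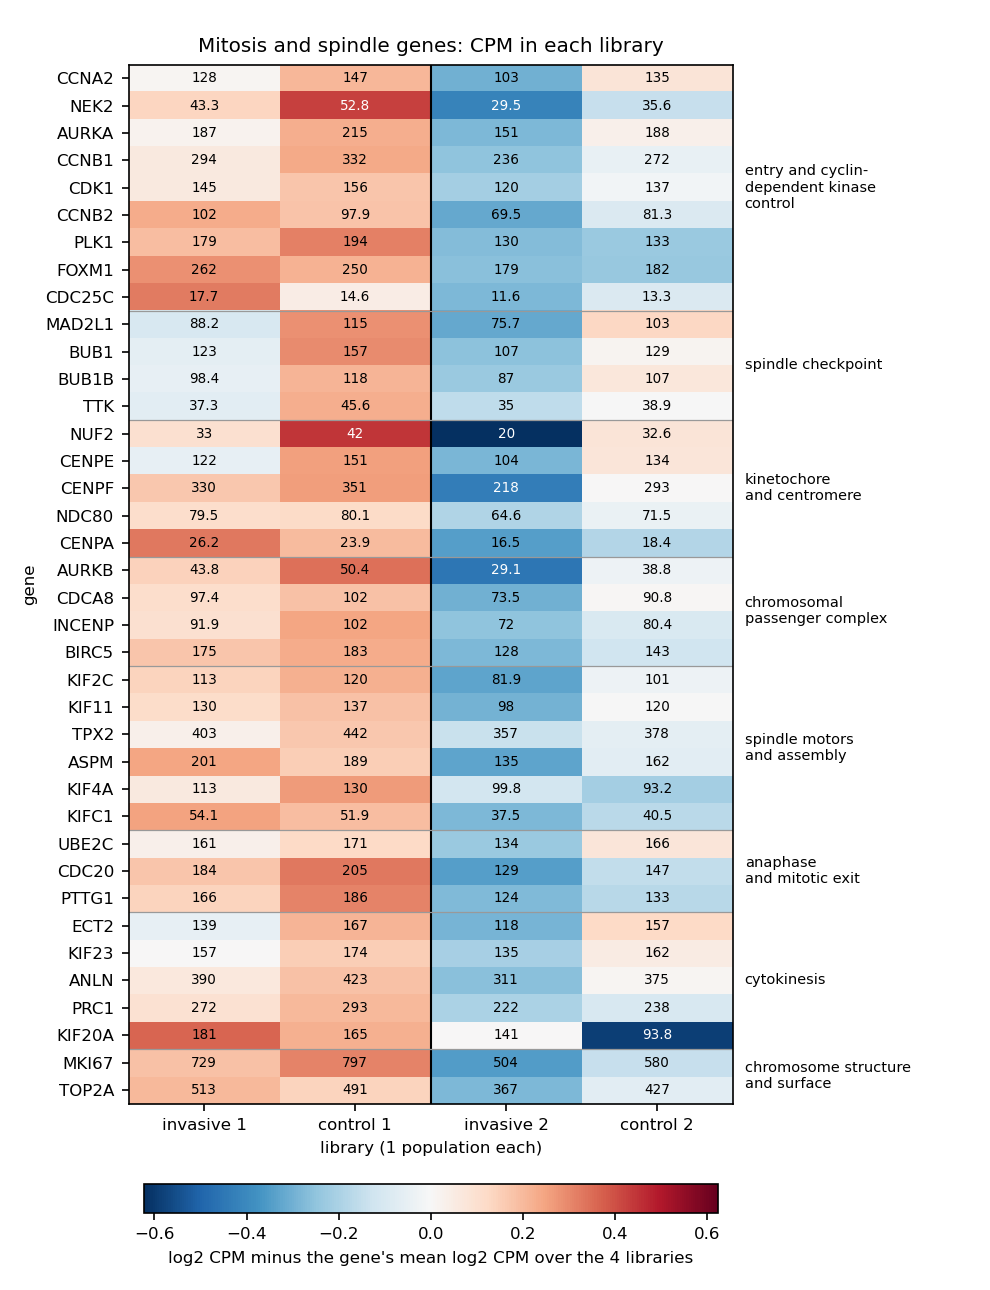
Level of each of the 38 genes (down the page, by role) in the 4 libraries (across, with the pairs divided by a line). The printed number is the CPM and the colour is log2 CPM minus the gene's mean over the 4 libraries. Each gene is bluer in invasive 2 than in invasive 1 and in control 2 than in control 1. Invasive 2 is the lowest library for 36 of 38, an order not counted over all genes tested.

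The difference between the pairs was larger than the difference within them. Each of the 38 genes was lower in control 2 than in control 1, and each was lower in invasive 2 than in invasive 1. Among all genes tested, 31.9% were lower in pair 2 in both groups. The median log2 difference of the 38 genes was −0.26 for control 2 over control 1 (range −0.81 to −0.05) and −0.38 for invasive 2 over invasive 1 (range −0.72 to −0.09). Over all genes tested with a count, these medians were 0.008 and −0.015. Invasive 1 had a higher level than control 2 for 28 of the 38 genes. Control 1 was the highest library for 30 of the 38. These orders of the libraries were not counted over all genes tested.

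Levels of different genes were set side by side per kilobase of annotated exon, the union of all exons of a gene. This union can be longer than the transcript that is made, so the order of genes depends in part on the annotation. Over the 4 libraries and per kilobase of annotated exon, UBE2C, CCNB1 and TPX2 had mean levels of 123, 111 and 110 CPM per kb, and CDC25C, TTK and NUF2 had 4.28, 8.56 and 9.49 CPM per kb. MKI67, which encodes the Ki-67 protein used to stain dividing cells, had 51.0 CPM per kb.

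The 4 genes of the spindle checkpoint were lower in each invasive library than in either control, and none passed the test. This pattern held for 10 of the 38 genes and for 19.7% of all genes tested. MAD2L1, whose product binds and restrains the activator CDC20, had 88.2 and 75.7 CPM in invasive 1 and 2, against 115 and 103 CPM in control 1 and 2. Its groups did not overlap, with means of 81.9 ± 8.83 CPM in the invasive populations and 109 ± 8.28 CPM in the controls (SD, n = 2 each). The log2 fold change was −0.44 ± 0.09 (SE), with an edgeR adjusted p = 0.109, the lowest of the 38. Pair 1 differed by −0.38 (log2, 95% counting interval −0.48 to −0.28) and pair 2 by −0.45 (−0.56 to −0.34). BUB1, a checkpoint kinase at the kinetochore, had 123 and 107 CPM in invasive 1 and 2, against 157 and 129 CPM in control 1 and 2. Again every invasive value was below every control value, and the log2 fold change was −0.33 ± 0.10 (edgeR adjusted p = 0.166). BUB1B, which encodes the checkpoint protein BUBR1, had 98.4 and 87 CPM in invasive 1 and 2 and 118 and 107 CPM in control 1 and 2. The groups were apart here too, with a log2 fold change of −0.30 ± 0.09 (edgeR adjusted p = 0.183). TTK, the kinase MPS1 that recruits the other checkpoint proteins, had 37.3 and 35.0 CPM in invasive 1 and 2, against 45.6 and 38.9 CPM in control 1 and 2. Its log2 fold change was −0.24 ± 0.11, and in pair 2 the counting interval of its log2 difference held 0 (−0.33 to 0.02). Without control 1, the log2 fold change of BUB1 was −0.18, that of BUB1B −0.22 and that of TTK −0.12.

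At the kinetochore and centromere, 3 of 5 genes were lower at an unadjusted p under 0.05 (8.41% of all genes tested were) and none after adjustment. NUF2, a subunit of the NDC80 complex that holds microtubules, had 33.0 and 20.0 CPM in invasive 1 and 2, against 42.0 and 32.6 CPM in control 1 and 2. Invasive 1 was just above control 2, so the groups overlapped, although each invasive population was below its own control. Its log2 fold change of −0.54 ± 0.13 had an edgeR adjusted p = 0.131, and the fold change was −0.31 without control 1, −0.20 without invasive 2 and −0.93 without invasive 1. CENPE, a kinesin that brings chromosomes to the spindle equator, had 122 and 104 CPM in invasive 1 and 2, against 151 and 134 CPM in control 1 and 2. These groups did not overlap, and the log2 fold change was −0.35 ± 0.09 (edgeR adjusted p = 0.148). CENPF, a large kinetochore protein, had 330 and 218 CPM in invasive 1 and 2 and 351 and 293 CPM in control 1 and 2. Its log2 fold change was −0.28 ± 0.12 (edgeR adjusted p = 0.272), and 0.0077 without invasive 2. NDC80, the partner of NUF2, showed little of NUF2's difference: it had 79.5 and 64.6 CPM in invasive 1 and 2 and 80.1 and 71.5 CPM in control 1 and 2, with a log2 fold change of −0.10 ± 0.10. CENPA, the histone H3 variant that marks centromeres, had 26.2 and 16.5 CPM in invasive 1 and 2 and 23.9 and 18.4 CPM in control 1 and 2. It was higher than its control in pair 1 and lower in pair 2, and its log2 fold change was −0.02 ± 0.14.

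**Figure D2:**
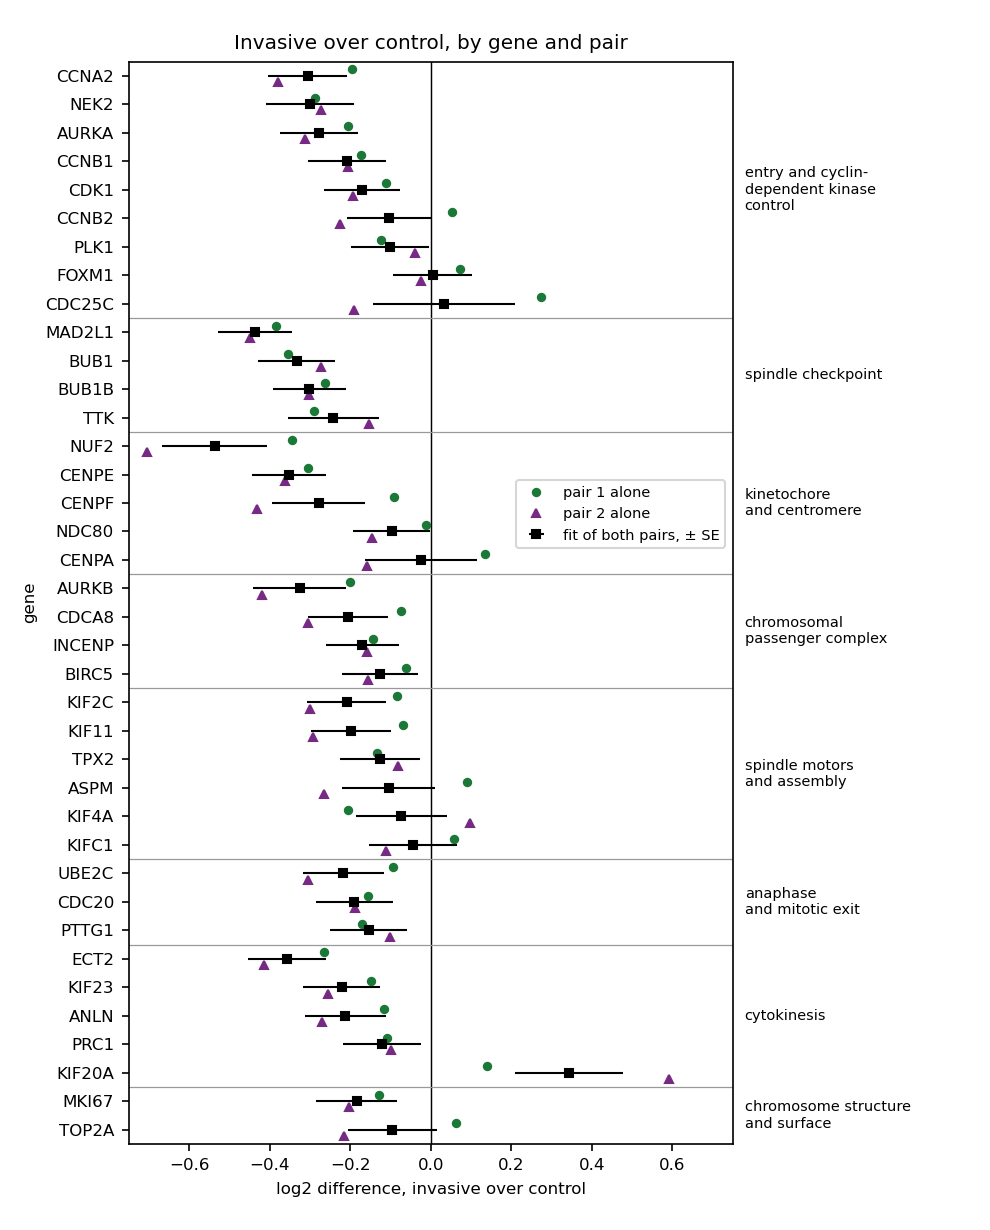
Log2 difference of invasive over control (x axis) for each of the 38 genes (down the page, by role). Squares are the log2 fold change of the fit over both pairs with its SE, circles are pair 1 alone and triangles pair 2 alone; 35 squares lie left of 0 and KIF20A lies farthest to the right, at 0.34.

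The promoter windows of the checkpoint, kinetochore and cleavage genes with the smallest p-values were read for the cell cycle genes homology region, the element through which the DREAM and MuvB complexes bind late cell cycle genes. RefSeq windows (build GRCh38.p14) from 250 bases before to 50 bases after an annotated transcript start were available for 32 of the 38 genes. The letters searched were TTTGAA, on both strands, or TTCGAA, which reads the same on both strands. Of the 32 genes, 75% had at least 1 match in a window, against 19.5% of all 27305 genes with a window. CCAAT, searched on both strands, was found for 81.2% of the 32 and for 39.7% of all genes, and both elements together for 62.5% and 7.85%. Genes with more than 1 start have more than 1 window. Counted by window, a TTTGAA or TTCGAA was in 69.2% of 39 windows of these genes and in 16.4% of all 35116. The 24 genes with a match had a median log2 fold change of −0.18, the 8 without one −0.25, and the 6 with no window given (UBE2C, BIRC5, FOXM1, TTK, AURKA and TPX2) −0.17. The windows of MAD2L1, NUF2, ECT2 and BUB1, the genes with the smallest p-values among those with a match, are given 5′ to 3′ on the strand of the gene, with the match in capitals.
MAD2L1 (chr4:120066799-120067098, minus strand): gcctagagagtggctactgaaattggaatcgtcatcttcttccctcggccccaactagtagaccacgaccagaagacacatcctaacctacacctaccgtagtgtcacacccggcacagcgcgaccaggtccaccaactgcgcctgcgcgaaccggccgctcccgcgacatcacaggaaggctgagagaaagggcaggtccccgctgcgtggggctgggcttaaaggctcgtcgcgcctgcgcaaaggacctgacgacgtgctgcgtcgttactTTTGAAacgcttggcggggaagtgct
NUF2 (chr1:163321704-163322003, plus strand): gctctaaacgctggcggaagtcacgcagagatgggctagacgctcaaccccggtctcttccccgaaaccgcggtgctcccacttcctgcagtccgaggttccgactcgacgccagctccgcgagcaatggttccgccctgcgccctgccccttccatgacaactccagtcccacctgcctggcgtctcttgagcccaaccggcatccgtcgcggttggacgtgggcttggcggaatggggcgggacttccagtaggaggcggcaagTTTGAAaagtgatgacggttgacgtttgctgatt
ECT2 (chr3:172750476-172750775, plus strand): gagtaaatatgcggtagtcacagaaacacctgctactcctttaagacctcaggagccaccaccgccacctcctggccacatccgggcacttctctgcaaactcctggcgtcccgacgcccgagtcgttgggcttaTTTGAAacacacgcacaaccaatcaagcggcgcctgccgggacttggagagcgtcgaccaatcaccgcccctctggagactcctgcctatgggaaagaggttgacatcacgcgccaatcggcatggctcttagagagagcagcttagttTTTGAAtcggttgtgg
BUB1 (chr2:110678014-110678313, minus strand): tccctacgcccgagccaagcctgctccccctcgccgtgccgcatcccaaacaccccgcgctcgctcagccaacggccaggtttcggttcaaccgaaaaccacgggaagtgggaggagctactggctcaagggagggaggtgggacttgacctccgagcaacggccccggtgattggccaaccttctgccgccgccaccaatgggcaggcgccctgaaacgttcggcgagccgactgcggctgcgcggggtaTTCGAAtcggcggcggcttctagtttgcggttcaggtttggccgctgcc
Counted from 1 at the annotated start, the match began at base 25 in MAD2L1, 17 in NUF2 and 2 in BUB1. ECT2 had a match at base 35 and another that began 115 bases before the start. The window of CENPE, and that of KIF20A, held neither TTTGAA nor TTCGAA. A match is a run of letters in this window and not a measured binding site.

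Of the 9 genes that control entry into mitosis, 6 were lower in both pairs (29.3% of all genes tested were). At an unadjusted p under 0.05, 3 were lower (8.41% of all genes tested). CCNA2, which encodes cyclin A2 of S and G2 phase, had 128 and 103 CPM in invasive 1 and 2, against 147 and 135 CPM in control 1 and 2. Its groups did not overlap, and its log2 fold change was −0.31 ± 0.10 (edgeR adjusted p = 0.196) and −0.16 without invasive 2. AURKA, the kinase that matures centrosomes, had 187 and 151 CPM in invasive 1 and 2, against 215 and 188 CPM in control 1 and 2. Invasive 1 was only just below control 2, and the log2 fold change of −0.28 ± 0.10 (edgeR adjusted p = 0.221) was −0.14 without invasive 2 and −0.16 without control 1. NEK2, a kinase of centrosome separation, had 43.3 and 29.5 CPM in invasive 1 and 2, against 52.8 and 35.6 CPM in control 1 and 2. Here the pairs were farther apart than the groups, and the log2 fold change was −0.30 ± 0.11 (edgeR adjusted p = 0.229) and 0.021 without control 1.

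CCNB1, one of the mitotic cyclins, had 294 and 236 CPM in invasive 1 and 2, against 332 and 272 CPM in control 1 and 2. CDK1, their kinase, had 145 and 120 CPM in invasive 1 and 2 against 156 and 137 CPM in control 1 and 2, and CCNB2, the second B cyclin, had 102 and 69.5 CPM in invasive 1 and 2 against 97.9 and 81.3 CPM in control 1 and 2. Their log2 fold changes were −0.21 ± 0.10, −0.17 ± 0.09 and −0.10 ± 0.10, none past the threshold. Without invasive 2, CCNB1 was at −0.064 and CDK1 at −0.043, and without control 1 at −0.048 and −0.060. PLK1, which acts from entry to cleavage, had 179 and 130 CPM in the invasive libraries and 194 and 133 CPM in the controls (log2 fold change −0.10 ± 0.10). In pair 2 the 95% counting interval of the log2 difference of PLK1 held 0 (−0.13 to 0.05). CDC25C, the phosphatase that activates CDK1, had 17.7 and 11.6 CPM in invasive 1 and 2 and 14.6 and 13.3 CPM in control 1 and 2. It had the fewest counts of the set (161 to 273 per library), and pair 1 differed by 0.27 (log2, 95% counting interval 0.02 to 0.53) and pair 2 by −0.19 (−0.50 to 0.12). FOXM1, the transcription factor of the set, had 262 and 179 CPM in invasive 1 and 2 and 250 and 182 CPM in control 1 and 2. It had the smallest difference of the 38, with a log2 fold change of 0.01 ± 0.10 and an SE that allows changes of either sign.

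All 4 genes of the chromosomal passenger complex, which corrects faulty attachments and later directs cleavage, were lower in both pairs (29.3% of all genes tested were). AURKB, its kinase, had 43.8 and 29.1 CPM in invasive 1 and 2, against 50.4 and 38.8 CPM in control 1 and 2, with a log2 fold change of −0.33 ± 0.11 (edgeR adjusted p = 0.222), −0.053 without invasive 2 and −0.10 without control 1. The log2 fold changes of CDCA8 (borealin), the scaffold INCENP and BIRC5 (survivin) were −0.21, −0.17 and −0.13. In pair 1 the 95% counting interval of the log2 difference held 0 for CDCA8 (−0.17 to 0.03) and BIRC5 (−0.13 to 0.01). For each of the 4 the invasive and control groups overlapped, since invasive 1 was above control 2.

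Among the 6 spindle motors and assembly factors no gene had an unadjusted p under 0.05, and 3 were lower in both pairs (29.3% of all genes tested were). KIF11, the motor that pushes spindle poles apart, had 130 and 98.0 CPM in invasive 1 and 2, against 137 and 120 CPM in control 1 and 2. KIF2C, which shortens microtubules at the centromere, had 113 and 81.9 CPM in invasive 1 and 2 against 120 and 101 CPM in control 1 and 2. TPX2, which activates AURKA on the spindle, had 403 and 357 CPM in invasive 1 and 2 against 442 and 378 CPM in control 1 and 2. In pair 1 the 95% counting interval of the log2 difference held 0 for KIF11 (−0.15 to 0.02) and KIF2C (−0.18 to 0.008). KIF11, KIF2C and TPX2 had log2 fold changes of −0.20, −0.21 and −0.13. ASPM, KIF4A and KIFC1, which act in pole focusing, chromosome arms and microtubule bundling, had −0.10, −0.07 and −0.04, with opposite directions in the pairs.

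The 3 genes of anaphase onset and mitotic exit were lower in both pairs (29.3% of all genes tested were). UBE2C, the ubiquitin-conjugating enzyme of the anaphase-promoting complex, had 161 and 134 CPM in invasive 1 and 2, against 171 and 166 CPM in control 1 and 2, so its groups did not overlap. CDC20, the activator of that complex, had 184 and 129 CPM in invasive 1 and 2 against 205 and 147 CPM in control 1 and 2, and PTTG1 (securin), its substrate, had 166 and 124 CPM in invasive 1 and 2 against 186 and 133 CPM in control 1 and 2. Log2 fold changes of the 3 genes were −0.22, −0.19 and −0.15, none past the threshold, and UBE2C was at −0.094 without invasive 2.

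Of the 5 genes of cytokinesis, 4 were lower in both pairs (29.3% of all genes tested were), and KIF20A was higher in both (36%). ECT2, which activates RHOA at the cleavage plane, had 139 and 118 CPM in invasive 1 and 2, against 167 and 157 CPM in control 1 and 2. The groups were apart, and the log2 fold change was −0.36 ± 0.10 (edgeR adjusted p = 0.154). KIF23, a motor of the central spindle, had 157 and 135 CPM in invasive 1 and 2 against 174 and 162 CPM in control 1 and 2, and the groups were again apart. ANLN, the actin-binding anillin of the cleavage ring, and PRC1, which bundles the central spindle, had log2 fold changes of −0.21 and −0.12, and ANLN was at −0.058 without invasive 2.

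KIF20A, the kinesin MKLP2 that moves the passenger complex to the central spindle, had 181 and 141 CPM in invasive 1 and 2, against 165 and 93.8 CPM in control 1 and 2. Control 2 stood low, with a log2 difference of −0.81 to control 1, the widest gap between the controls among the 38 genes. In pair 1 KIF20A differed by 0.14 (log2, 95% counting interval 0.06 to 0.21) and in pair 2 by 0.59 (0.49 to 0.69). Its log2 fold change of 0.34 ± 0.13 missed the threshold (edgeR adjusted p = 0.253), and was −0.06 without control 2 and 0.10 without invasive 1. Exons of KIF20A overlap those of CDC23 and BRD8 on the opposite strand by 68 and 132 bases, and no source used here says whether the counting was stranded. The log2 fold changes of CDC23 and BRD8 were −0.16 and 0.14.

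MKI67 and TOP2A, the chromosome surface protein and the topoisomerase of mitotic chromosomes, are common markers of proliferation. MKI67 had 729 and 504 CPM in invasive 1 and 2, against 797 and 580 CPM in control 1 and 2. The control of pair 2 was lower than the invasive population of pair 1, and the log2 fold change was −0.18 ± 0.10 (edgeR adjusted p = 0.383) and 0.077 without control 1. Within pairs the log2 difference of MKI67 was −0.13 (95% counting interval −0.16 to −0.09) and −0.20 (−0.25 to −0.16), both intervals clear of 0. TOP2A had 513 and 367 CPM in invasive 1 and 2 and 491 and 427 CPM in control 1 and 2, higher than its control in pair 1 and lower in pair 2.

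**Figure D3:**
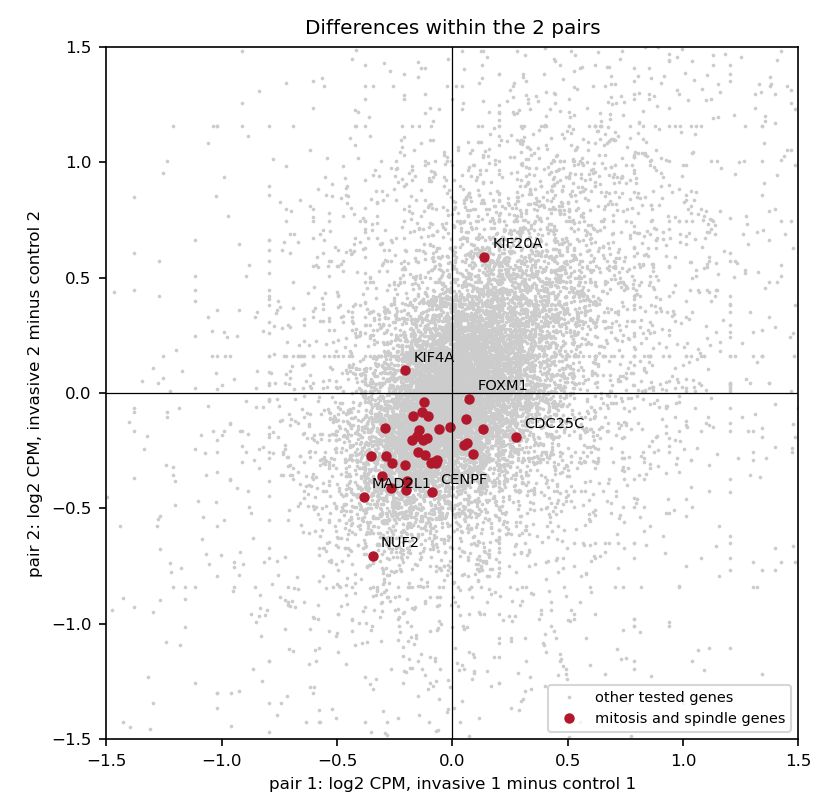
Log2 difference in CPM of invasive 1 minus control 1 (x axis) against invasive 2 minus control 2 (y axis). Red points are the 38 genes and grey points the other tested genes within 1.5 of 0 on both axes (602 genes lie outside or have a count of 0); 29 of 38 red points lie at lower left and KIF20A lies alone in the upper right.

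In pair 1, 30 of the 38 genes were lower in the invasive population (44.7% of all genes tested), and in pair 2 36 were (48.6%). The 95% counting interval of the log2 difference lay below 0 for 25 of the 38 genes in pair 1 (18.6% of all genes tested), for 30 in pair 2 (24.6%) and for 22 in both (11%). It lay above 0 for 5 genes in pair 1 (24.1%) and for 1 in pair 2 (24.5%). All genes tested include many with lower counts and wider intervals. These intervals compare 2 libraries and not the conditions, since they hold no spread between populations. Across the 38 genes the differences had an SD of 0.15 in pair 1 and 0.20 in pair 2, and the median half-width of the intervals was 0.08 and 0.10.

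Several of these genes overlap a neighbour or have a near-identical copy, which can share reads with them. CCNA2, FOXM1 and CDC25C overlap exons of EXOSC9, ITFG2 and FAM53C on the opposite strand by 254, 781 and 293 bases, and CENPA overlaps SLC35F6 on its own strand by 138 bases. In the annotation PRC1 shares 3181 exon bases with AC068831.7 and BUB1B 457 with BUB1B-PAK6, both on their own strand, and neither of these loci was among the genes analysed. The log2 fold changes of EXOSC9, ITFG2, FAM53C and SLC35F6 were −0.39, 0.37, −0.01 and 0.15. Near-identical copies held few counts: KIF4B, a copy of KIF4A, had 2 to 8 counts per library, and copies of NEK2, AURKA, CDC20, PTTG1 and UBE2C at most 10. The part of such sharing in these values was not tested.

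Other mitotic genes outside the 38 were also slightly lower in the invasive populations, and none passed the test in either direction. Of all genes tested, 29.3% were lower and 36% higher in both pairs. Of 32 further kinetochore and checkpoint genes, 22 were lower and 3 higher in both pairs, with a median log2 fold change of −0.16. SKA1, which couples kinetochores to microtubules, and CENPQ, a subunit of the inner kinetochore, had −0.51 ± 0.12 and −0.51 ± 0.13 (edgeR adjusted p = 0.128 and 0.132). Of 29 further genes of the spindle and cytokinesis, 17 were lower and 2 higher in both pairs, with a median of −0.15. The kinesin KIF20B had −0.40 ± 0.09 and the microtubule-binding protein HMMR −0.37 ± 0.10 (edgeR adjusted p = 0.128 and 0.143). Of 21 genes of condensin, cohesin and their regulators, 17 were lower and 2 higher in both pairs, with a median of −0.22. NCAPG and NCAPH, subunits of condensin I, had −0.43 ± 0.10 and −0.46 ± 0.12 (edgeR adjusted p = 0.127 and 0.135).

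The 17 genes of the anaphase-promoting complex had a median of −0.05. In both pairs 8 of the 17 were lower and 4 higher, where all genes tested had 29.3% lower and 36% higher. Among these, the inhibitor FBXO5 and the scaffold subunit ANAPC1 had −0.35 ± 0.12 and −0.30 ± 0.11 (edgeR adjusted p = 0.214 and 0.228). Genes of mitotic entry outside the 38 had a median of −0.14 over 19 genes, with 9 lower and 4 higher in both pairs. CKS1B, a subunit of cyclin-dependent kinases, was at −0.41 ± 0.10 and the kinase MASTL at −0.36 ± 0.11 (edgeR adjusted p = 0.129 and 0.186). DNA replication and G1/S genes had a median of −0.15 over 25 genes, but −0.01 in pair 1 and −0.27 in pair 2. Of these 25 genes, 15 were lower and 1 higher in both pairs. CDC25A, the phosphatase of S phase entry, had −0.57 ± 0.15, and MCM7, a subunit of the replicative helicase, −0.34 ± 0.13 (edgeR adjusted p = 0.139 and 0.233). The median was also lower in pair 2 than in pair 1 for kinetochore (−0.09 in pair 1, −0.23 in pair 2) and spindle genes (−0.12, −0.29). The same held for condensin and cohesin (−0.21, −0.25) and mitotic entry (−0.05, −0.14). It was higher in pair 2 for the anaphase-promoting complex (−0.07, −0.02) and the list of inhibitors and exit described next (−0.03, 0.12).

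The list of cyclin-dependent kinase inhibitors and cell cycle exit genes also holds the D cyclins, which activate such kinases, so it mixes genes of unlike roles. Its median was −0.01 over the 15 of 20 genes that passed the filter. In both pairs 6 of these were lower and 6 higher (29.3% and 36% of all genes tested). E2F5 and E2F4, the repressive E2F factors, had −0.82 ± 0.22 and −0.31 ± 0.09 (edgeR adjusted p = 0.152 and 0.173). The other 5, CDKN1C, CDKN2A, CDKN2B, CDKN2C and CCND2, had too few counts to be tested. At an unadjusted p under 0.05, 9 of the 32 kinetochore genes, 9 of the 29 spindle genes and 8 of the 21 condensin and cohesin genes were lower, and 0, 1 and 0 were higher. For the anaphase-promoting complex 3 of 17 were lower and 1 higher, and for mitotic entry 5 of 19 and 0. Of the replication and G1/S genes 2 of 25 were lower and 0 higher, and of the list of inhibitors and exit 3 of 15 and 0. All genes tested had 8.41% lower and 9.82% higher at that level.

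**Figure D4:**
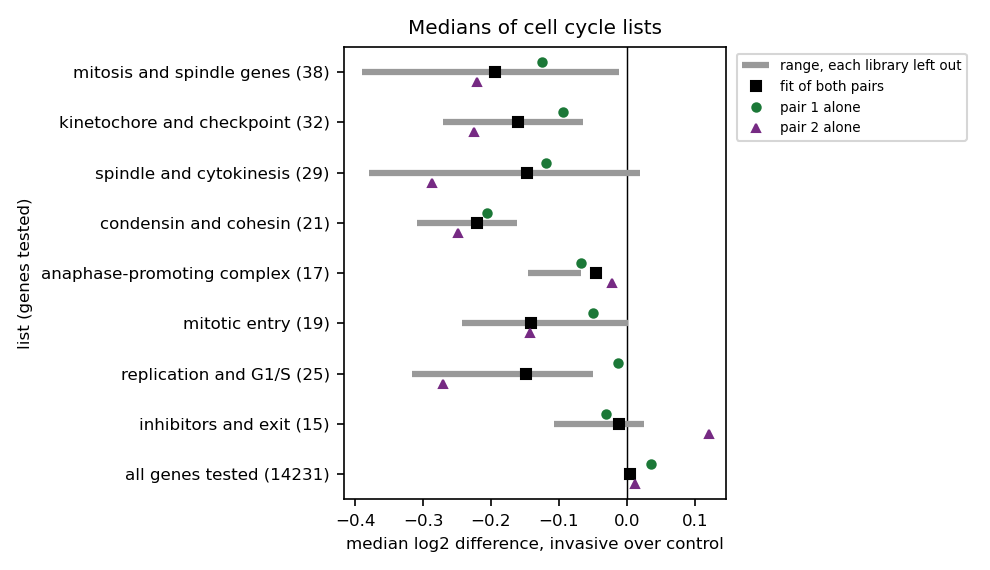
Median log2 difference of invasive over control (x axis) for the 38 genes, 7 related lists and all genes tested (down the page, with the number tested). Squares are the fit of both pairs, circles pair 1 and triangles pair 2. Grey bars are the range of fits that leave out each library in turn, without the pair block. The bar of the 38 genes runs from −0.39 to −0.01.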

How the data were processed

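Polyadenylated RNA of 2 invasive and 2 control populations was sequenced in strand-specific libraries, per the labels' protocols. The deposited count files hold raw whole-number counts for each Ensembl gene, as their headers say. The submitters' processing notes name GRCh38 and the tools DESeq2, HTSeq, Bowtie, TopHat, TopHat2 2.0.12 and bcl2fastq 1.8.4, with no role or order. The authors also deposited a normalized score per gene, rounded to whole numbers, whose method no source used here states. It was used in 1 alternative.

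The 29387 genes in all 4 count files were analysed. Genes were filtered with filterByExpr by group (minimum count 10, minimum total 15), leaving 14231. They were tested with edgeR 4.0.16 (limma 3.58.1, R 4.3.3): TMM factors, glmQLFit with a robust prior, two-sided quasi-likelihood F test, Benjamini-Hochberg adjustment at 0.05. The SE of a gene was its absolute log2 fold change divided by the square root of its F statistic. The pair is a block, following the design text. As a check, differences between the libraries of a group correlated across genes between the groups (r 0.283). This leaves 1 residual degree of freedom, so the spread leans on the prior (5.45 degrees of freedom). The design text calls the invasive populations independently derived and does not say this of the controls, so p-values measure only the spread between these samples, which may be technical in part.

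Within pairs, CPM used total counts, with exact (Clopper-Pearson) 95% intervals for a ratio of 2 counts, which cover counting error only. Exon lengths and overlaps came from GENCODE release 29, which need not be the annotation the authors counted with. Genes given with all library values were those of the 8 smallest p-values, the 3 widest differences between pairs, the 3 fold changes nearest 0, MKI67 and FOXM1. The others were added after their values were seen. Of related lists, the 2 smallest p-values are named. The 38 genes and all lists were chosen with earlier results of these data known. DESeq2 1.42.0, other scalings, other filters, no block and each library left out were alternatives. The microglial marker AIF1 was not analysed here.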

Additional observations from a re-analysis of the deposited data

Results flagged for a closer look

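In 8 of the 38 genes the pairs differed in opposite directions, with the invasive population on one side of its control in pair 1 and on the other in pair 2. The difference between the pairs was not tested, because a model with a term for it leaves no residual degree of freedom. For ASPM (0.091 in pair 1 and −0.26 in pair 2, log2 difference of invasive over control) and TOP2A (0.063 and −0.22) both counting intervals were clear of 0. The others were CCNB2 (0.053 and −0.23), KIFC1 (0.058 and −0.11), CDC25C (0.27 and −0.19), CENPA (0.13 and −0.16), FOXM1 (0.072 and −0.025) and KIF4A (−0.20 and 0.10), and for each of these 1 interval or both held 0. In 7 of the 8 genes the invasive population was higher in pair 1 and lower in pair 2, and KIF4A was the exception.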

How the results depend on the processing

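The median of the 38 genes stayed between −0.22 and −0.17 under each other scaling, filter and tool and with no replicate block (−0.19), and ran from −0.39 to −0.011 when each library was left out. With no replicate block 0 of the 38 passed. The number of the 38 called lower was 1 with total counts as library size (MAD2L1), 2 with TMM factors computed before the filter (MAD2L1 and NUF2; chosen after seeing the data), 6 with no filter (also CENPE, ECT2, BUB1 and CCNA2) and 0 elsewhere. The prior degrees of freedom were 5.45 in the reported fit, 10.4 with total counts and 12.4 with TMM before the filter. Over all genes, 34 were called higher and 5 lower; other settings gave 80 and 9 (RLE factors), 368 and 91 (total counts), 164 and 18 (upper quartile), 760 and 693 (no filter), 2 and 0 (no replicate block), 386 and 252 (TMM before the filter) and 142 and 29 (DESeq2), and 4 to 83 and 0 to 87 with each library left out. The cause was not tested.

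With no filter, 693 of 25577 genes tested were called lower (2.71%) and 760 higher. Lower calls then numbered 3 for the 32 kinetochore genes, 7 for the 29 of spindle and cytokinesis and 3 for the 21 of condensin and cohesin. They numbered 1 for the 17 genes of the anaphase-promoting complex, 2 for the 19 of mitotic entry and 3 for the 25 of replication. Of the 20 listed genes of inhibitors and exit, 3 were called lower and 1 higher. With TMM before the filter, 252 of the 14231 genes tested were called lower. The lists, in the same order, then had 2, 2, 2, 0, 1, 1 and 0 lower calls. With each library left out, medians ran from −0.27 to −0.064 (kinetochore), −0.38 to 0.020 (spindle), −0.31 to −0.16 (condensin and cohesin), −0.15 to −0.068 (anaphase-promoting complex), −0.24 to 0.0015 (mitotic entry), −0.32 to −0.050 (replication) and −0.11 to 0.026 (inhibitors and exit).

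FOXM1 changed sign to −0.018 with no filter and −0.017 with TMM before the filter. The fits with each library left out have no pair block, so the gap between the pairs enters their values and signs. With each library left out, signs changed for FOXM1 (−0.30 to 0.27), CDC25C (−0.29 to 0.32), CENPA (−0.39 to 0.28), KIFC1 (−0.33 to 0.20), KIF4A (−0.32 to 0.18), TOP2A (−0.35 to 0.14), ASPM (−0.41 to 0.17), CCNB2 (−0.39 to 0.15), NDC80 (−0.26 to 0.043), PLK1 (−0.37 to 0.20), PRC1 (−0.29 to 0.047), BIRC5 (−0.37 to 0.081), PTTG1 (−0.40 to 0.11), MKI67 (−0.48 to 0.077), INCENP (−0.37 to 0.018), CDC20 (−0.48 to 0.083), KIF2C (−0.46 to 0.011), CENPF (−0.59 to 0.0077), NEK2 (−0.61 to 0.021) and KIF20A (−0.064 to 0.77). The other 18 kept their sign, but the value nearest 0 was −0.001 for TPX2, −0.003 for KIF11, −0.014 for CDCA8, −0.043 for CDK1, −0.048 for CCNB1, −0.053 for AURKB, −0.058 for ANLN and −0.094 for UBE2C. The median within pair 1 was −0.16 to −0.10, and within pair 2 −0.24 to −0.22, with TMM-scaled sizes, a prior count of 2, the authors' normalized scores (pseudocount 1) or only the 36 genes averaging at least 500 counts.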
